A study of Arabidopsis thaliana with 12 samples.

Results

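The lsd1-1 mutant of Arabidopsis thaliana was compared with wild type across all measured genes, in messenger RNA from whole rosettes. The comparison uses the 6 of 12 libraries in the series that carry either name, 3 of lsd1-1 and 3 of wild type, chosen by their labels alone. Both groups are of the Ws-0 accession, were 2 weeks old, and grew on MS medium with 16 h of light per day at 22 °C by day and 18 °C by night. Neither group received dexamethasone or any other treatment. The protocol calls the 3 libraries of a group biological repeats, but the sources used here give neither the number of plants per library, nor the molecular nature of the lsd1-1 allele, nor the hour of harvest. The other 6 libraries came from lines that carry LSD1 fusion proteins. They entered the low-count filter, the scaling between libraries and the fit's shared estimate of the spread between replicates.

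LSD1 is a zinc finger protein that acts as a brake on cell death. Mutants that lack it are lesion mimics: once superoxide or light stress starts a lesion, death spreads through the leaf instead of stopping at its edge, and salicylic acid signalling is needed for that spread. The same mutants have been used to study how light acclimation, stomatal behaviour and growth are traded against defence, which is why genes outside salicylic acid immunity are described here as well.

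The 6 libraries held 9781360 to 10934277 counts each, and 19487 genes passed the low-count filter and were tested. LSD1 itself had 1, 2 and 0 counts in the lsd1-1 libraries, against 237, 247 and 272 counts in the wild-type libraries. The groups did not overlap, and the summed counts were 254-fold lower in lsd1-1 (95% counting interval 86.5-fold to 1230-fold). Of 15 tested loci among the 10 on either side of LSD1, only AT4G20300 was called, at a log2 difference of -0.25. A principal component analysis of the 6 libraries placed the genotypes apart on the first component, which held 55.9% of the variance. Libraries with the same replicate number in both groups deviated together from their group means, so a fit with replicate number as a block is given beside counts that it changes by more than 1.5 times. Leaf identity showed in the mesophyll markers, of which all 7 were tested and none were called, and their summed level was 33330 to 38400 CPM in lsd1-1 and 34150 to 43330 CPM in wild type. None of the markers of guard cells (9 tested), vascular tissue (8 tested) or root (9 of 12 tested) were called. The summed guard cell markers stood at 99.3 to 112 CPM in lsd1-1 and 102 to 131 CPM in wild type, and the summed vascular markers at 178 to 249.8 CPM in lsd1-1 and 170.4 to 311 CPM in wild type. The root markers summed to 1111 to 1292 CPM in lsd1-1 and 1053 to 1335 CPM in wild type, most of it from PYK10, a beta-glucosidase of endoplasmic reticulum bodies, and no marker of any of these lists was at 0 counts throughout. Of these 4 lists, 1 root marker was called higher with the block, and 1 root marker and 0 others had an unadjusted p below 0.05 in edgeR or a call in DESeq2. In bulk tissue, fewer cells of a type and less RNA per cell cannot be told apart.

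More genes were higher in lsd1-1 than were lower, and the rises were the larger changes. At an adjusted p below 0.05 (edgeR's quasi-likelihood test, Benjamini-Hochberg over all genes tested), 1012 genes (5.19%) were higher in lsd1-1 and 605 (3.1%) were lower, 8.3% in all. The median log2 difference was 0.92 among the genes called higher and -0.49 among those called lower. Of the genes called higher, 470 (2.41% of all genes tested) differed at least 2-fold, 175 at least 4-fold and 58 at least 8-fold. Of the genes called lower, 39, 6 and 3 reached those sizes. Of all genes tested, 13.8% had no overlap between the groups with lsd1-1 higher, and 12.8% with lsd1-1 lower. Such separation was seen for 1010 of the genes called higher and 604 of those called lower, so it adds little to a call. Genes called higher made up 6.82%, 7.49% and 6.56% of all tested CPM, the counts scaled to library size with TMM factors, in the lsd1-1 libraries, against 3.83%, 4.35% and 3.73% in the wild-type libraries. Genes called lower made up 4.33%, 4.16% and 4.24% in lsd1-1, against 6.17%, 5.69% and 5.82% in wild type. In the blocked fit 1750 genes (8.98%) passed as higher and 1139 (5.84%) lower, and 1007 and 603 of the calls without the block were among them. With each of the 6 libraries left out in turn, 447 of the higher calls and 189 of the lower calls held in every run. The wild-type library of replicate 1 mattered most: without it 540 genes were called higher and 224 lower.

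**Figure D1:**
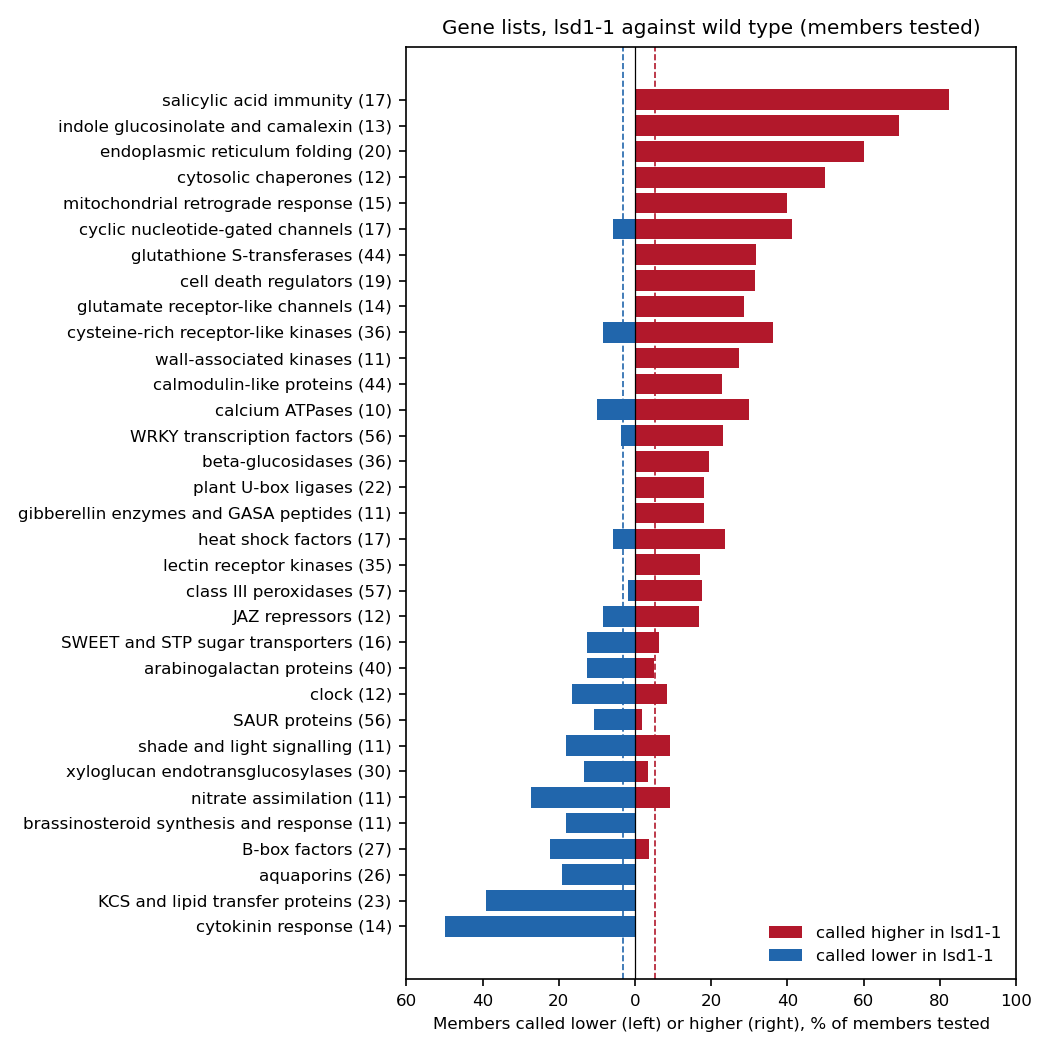
Share of the tested members of each gene list that was called higher (right, red) or lower (left, blue) in lsd1-1 against wild type, for lists with at least 10 tested members of which at least 15% were higher or at least 10% lower. Numbers in brackets are members tested, and the dashed lines mark the shares over all 19487 genes, 5.19% higher and 3.1% lower. Immune, indole, chaperone and calcium channel lists extend to the right, and cytokinin response, fatty acid elongation, aquaporins and B-box factors extend to the left.

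Gene lists are described below by how many tested members were called, with the median log2 difference over the tested members. Over all genes that median was -0.00684. For comparison with the counts of each list, 5.19% of all genes tested were called higher and 3.1% lower. With the block these shares were 8.98% and 5.84%. With a library left out, 540 to 904 of all genes were higher and 224 to 471 lower. The salicylic acid immunity list, which defines the known part of the phenotype, had 14 of 17 tested members higher and 0 lower, with a median of 1.42. The rest of this account concerns what changed beside it.

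The pathway that makes tryptophan rose almost as a whole. Tryptophan is the amino acid from which plants build auxin, indole glucosinolates and the antimicrobial compound camalexin. Of the 8 enzymes tested, 6 were called higher and 0 lower (median 0.62), and 5 of the 6 were called with every library left out in turn. ASB1, the beta subunit of anthranilate synthase, which draws chorismate into the pathway, had 29.5, 37.3 and 30.3 CPM in lsd1-1, against 12.5, 16.1 and 13.7 CPM in wild type. The groups did not overlap, and the log2 difference was 1.198 (SE 0.14, edgeR adjusted p = 0.000164). ASA1, the alpha subunit, had 71.7, 84.9 and 80.2 CPM in lsd1-1, against 39.3, 42.4 and 48.6 CPM in wild type (log2 difference 0.86, SE 0.12). The enzymes that follow moved by less. PAT1, also written TRP1, transfers phosphoribose to anthranilate and rose by 0.64 (SE 0.11). The indole-3-glycerol phosphate synthase AT2G04400 rose by 0.71 (SE 0.09), and TSA1, the alpha subunit of tryptophan synthase, by 0.60 (SE 0.12). TSB1, the beta subunit, rose by 0.38 (SE 0.11), a call that was lost in 5 of the 6 runs that left out a library (highest edgeR adjusted p = 0.18). It passed with the replicate block (edgeR adjusted p = 0.00105). PAI1 (0.19, SE 0.11) and TSB2 (0.56, SE 0.22) did not pass the test, TSB2 reaching an edgeR adjusted p = 0.0339 with the replicate block, and TSB1 and TSB2 are near-identical copies whose reads cannot be cleanly split.

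The windows around the starts of ASB1 and TSA1, from 250 bases before to 50 after the annotated start, are shown because both carry several copies of the W-box, the letters that WRKY transcription factors bind. The sequences are from the RefSeq TAIR10.1 genome. ASB1 is chr1:8839560-8839859 and TSA1 is chr3:20225474-20225773, both on the minus strand, written 5′ to 3′ along the gene. Capitals mark TTGACC or TTGACT and, for the opposite strand, GGTCAA or AGTCAA.
ASB1: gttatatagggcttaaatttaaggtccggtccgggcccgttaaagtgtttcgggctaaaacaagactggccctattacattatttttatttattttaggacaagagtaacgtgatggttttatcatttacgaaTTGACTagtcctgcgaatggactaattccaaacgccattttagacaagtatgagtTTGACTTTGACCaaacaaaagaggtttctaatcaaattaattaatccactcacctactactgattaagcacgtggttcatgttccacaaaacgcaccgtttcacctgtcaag
TSA1: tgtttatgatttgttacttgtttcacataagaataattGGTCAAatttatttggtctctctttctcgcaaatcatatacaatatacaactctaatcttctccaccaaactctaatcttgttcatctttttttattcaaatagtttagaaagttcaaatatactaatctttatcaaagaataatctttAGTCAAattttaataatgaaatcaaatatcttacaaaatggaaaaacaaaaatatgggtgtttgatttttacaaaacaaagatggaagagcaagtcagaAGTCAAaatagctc

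ASB1 held 3 matches, at positions -117, -62 and -56 from its start, and TSA1 held 3, at -212, -63 and 36. Of the 8 tryptophan genes, 5 held at least 1 match, and all 5 were among the 6 called higher. Over all genes the W-box letters stood in 47.5% of 1012 windows of genes called higher and in 27.3% of 605 windows of genes called lower. They stood in 32.2% of 17804 windows of genes not called, and in 32.8% of the 19421 windows of all tested genes. Among the 175 genes at least 4-fold higher the share was 46.9%. A match is a description of the letters, not evidence of binding.

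**Figure D2:**
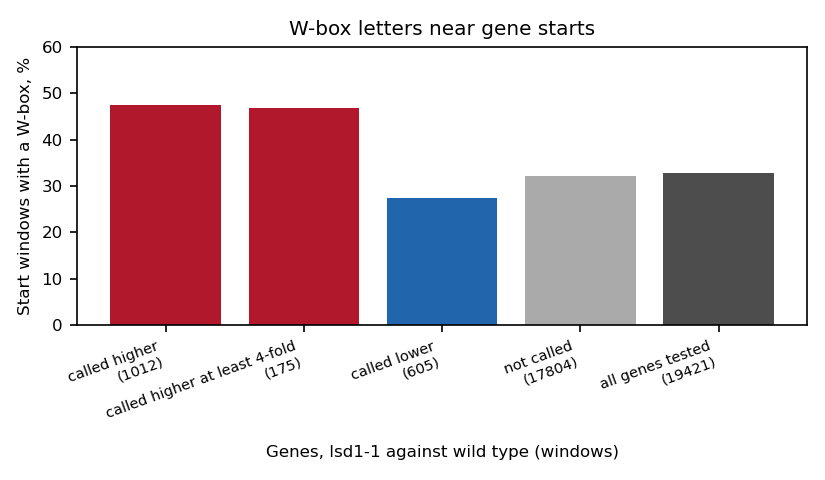
Share of 300-base start windows that held the W-box letters TTGACC or TTGACT on either strand, by the call of the gene in lsd1-1 against wild type; brackets give the number of windows. Windows of genes called higher held the letters more often (47.5%) than windows of genes called lower (27.3%) or not called (32.2%).

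Genes of indole glucosinolate and camalexin synthesis rose as well, though not all of them. In this list, which also holds MYB regulators and the transporter PEN3, 9 of 13 tested members were higher and 0 lower (median 1.31), and 7 of the 9 were called with every library left out. CYP79B2, which turns tryptophan into indole-3-acetaldoxime, had 52.6, 53.8 and 66.8 CPM in lsd1-1, against 17.3, 21.1 and 24.3 CPM in wild type (log2 difference 1.47, SE 0.16, edgeR adjusted p = 0.000114). Its close paralog CYP79B3 had 22.6, 27.6 and 32.4 CPM in lsd1-1, against 23.4, 23.9 and 35.2 CPM in wild type, with overlapping groups and a log2 difference of 0.00 (SE 0.18). CYP83B1, which commits the intermediate to indole glucosinolates, rose by 0.83 (SE 0.13). CYP71A13, a near-identical copy of CYP71A12, and PAD3, both of the camalexin branch, rose by 1.70 (SE 0.18) and 3.22 (SE 0.31). Among the regulators, MYB51 rose by 1.31 (SE 0.20), while MYB34, a related activator of indole glucosinolate genes, had a log2 difference of -0.00 (SE 0.12). PEN3, an ABC transporter of the plasma membrane that acts in penetration resistance, had 445, 555 and 456 CPM in lsd1-1, against 275, 313 and 285 CPM in wild type. The groups did not overlap (log2 difference 0.74, SE 0.14, edgeR adjusted p = 0.00527).

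Chaperones of the endoplasmic reticulum were higher, most of them by small amounts. These proteins fold secreted and membrane proteins, and their genes are the classical targets of the unfolded protein response. All 20 members kept in the list were tested and all 20 had a positive difference. Of these, 12 were called higher and 0 lower, with a median of 0.52. Of the 12, 8 were called with every library left out. ERDJ3B, a co-chaperone of BiP, had 44.2, 42.6 and 48.1 CPM in lsd1-1, against 28.3, 30.0 and 30.3 CPM in wild type (log2 difference 0.61, SE 0.08, edgeR adjusted p = 0.000497). CRT3, a calreticulin that folds immune receptors, rose by 0.61 (SE 0.10), and the lectin chaperone CNX1 by 0.49 (SE 0.09). BIP1 (0.57, SE 0.10) and BIP2 (0.66, SE 0.11) are the luminal Hsp70 proteins and were both called, though they are near-identical copies whose reads may be shared. SHD, the Hsp90 of this compartment, had 246, 253 and 262 CPM in lsd1-1, against 168, 183 and 210.2 CPM in wild type (log2 difference 0.44, SE 0.09). The calls of the transcription factors that drive the response depended more on single libraries. BZIP60, which the unfolded protein response switches on by splicing, had 84.0, 85.9 and 71.4 CPM in lsd1-1, against 50.3, 53.3 and 38.7 CPM in wild type, a difference of 0.76 (SE 0.20, edgeR adjusted p = 0.0406) that was not called in any of the 6 runs with a library left out (0.0543 to 0.149). BZIP28 rose by 0.36 (SE 0.09), a call lost in 4 of those runs (highest adjusted p = 0.141). Both passed with the replicate block, BZIP60 at an edgeR adjusted p = 0.000127 and BZIP28 at 0.00382.

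The windows of PDIL1-2, a protein disulfide isomerase that rose by 0.53 (SE 0.09), and of SHD are shown because each holds the endoplasmic reticulum stress element. PDIL1-2 is chr1:29126398-29126697 on the plus strand and SHD is chr4:12556009-12556308 on the minus strand, from the RefSeq TAIR10.1 genome and written 5′ to 3′ along the gene. Capitals mark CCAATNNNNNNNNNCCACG.
PDIL1-2: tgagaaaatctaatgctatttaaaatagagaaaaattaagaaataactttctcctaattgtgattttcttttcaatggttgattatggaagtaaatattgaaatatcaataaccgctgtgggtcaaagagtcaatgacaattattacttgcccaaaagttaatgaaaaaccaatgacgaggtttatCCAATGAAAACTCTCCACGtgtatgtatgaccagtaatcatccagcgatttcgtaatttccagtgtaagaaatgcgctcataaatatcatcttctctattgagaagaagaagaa
SHD: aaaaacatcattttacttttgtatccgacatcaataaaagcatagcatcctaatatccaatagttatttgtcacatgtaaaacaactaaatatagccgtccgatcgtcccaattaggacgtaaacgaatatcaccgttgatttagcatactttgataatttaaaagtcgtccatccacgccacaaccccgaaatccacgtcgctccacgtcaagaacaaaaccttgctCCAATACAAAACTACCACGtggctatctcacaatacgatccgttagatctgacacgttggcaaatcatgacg

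These letters stood in 5 of the 20 windows of this list and in 0.479% of all windows. Of the genes that held them, PDIL1-1 and EBS1 were not called. The G-box letters CACGTG stood in 11 of the 20 and in 8.82% of all windows. In both windows shown, a G-box overlaps the end of the marked element, so these shares are not independent. The core TGACGTGG stood in 6 of the 20 and 1.89% of all windows. Of the genes with that core, CRT1, PDIL1-1 and EBS1 were not called, though CRT1 passed with the replicate block (edgeR adjusted p = 0.0204).

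Several mitochondrial stress genes rose as well. This list holds genes that respond when mitochondrial electron transport is disturbed, among them the bypass enzymes of the respiratory chain. All 15 members kept in the list had a positive difference (median 1.11). The test called 6 higher and 0 lower, and 10 higher with the replicate block. Without lsd1-1 replicate 1 or 2, or wild-type replicate 1 or 3, 3 were called. BCS1, an AAA-type ATPase of the outer mitochondrial membrane, had 92.0, 103 and 74.6 CPM in lsd1-1, against 16.6, 22.1 and 15.2 CPM in wild type (log2 difference 2.32, SE 0.27, edgeR adjusted p = 0.0005). NDB2, an external NAD(P)H dehydrogenase, had 67.2, 79.2 and 61.9 CPM in lsd1-1, against 27.4, 35.8 and 35.2 CPM in wild type (1.08, SE 0.15, edgeR adjusted p = 0.00072). Neither gene's groups overlapped, and both calls held with every library left out. AOX1A, the main alternative oxidase, had 105, 134 and 93.3 CPM in lsd1-1, against 45.6, 61.0 and 47.0 CPM in wild type. Its difference of 1.11 (SE 0.27) had an edgeR adjusted p = 0.0311, which reached 0.13 without wild-type replicate 1 and 1.7e-07 with the replicate block. NAC017, the membrane-bound factor that activates AOX1A, had 56.7, 55.9 and 56.2 CPM in lsd1-1, against 57.4, 55.5 and 51.7 CPM in wild type, and the groups overlapped.

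The windows of NDB2 and CYP81D8, a cytochrome P450 of the same list, are printed because each holds the mitochondrial dysfunction motif, to which NAC factors of this response are known to bind. NDB2 is chr4:2572177-2572476 on the plus strand and CYP81D8 is chr4:17571694-17571993 on the minus strand, from the RefSeq TAIR10.1 genome and written 5′ to 3′ along the gene. Capitals mark CTTGNNNNNCAAG.
NDB2: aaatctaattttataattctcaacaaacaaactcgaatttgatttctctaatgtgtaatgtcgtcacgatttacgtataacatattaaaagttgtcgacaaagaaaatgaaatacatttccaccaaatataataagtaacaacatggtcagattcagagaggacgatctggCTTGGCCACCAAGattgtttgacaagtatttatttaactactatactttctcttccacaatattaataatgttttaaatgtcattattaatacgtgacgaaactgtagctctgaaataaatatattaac
CYP81D8: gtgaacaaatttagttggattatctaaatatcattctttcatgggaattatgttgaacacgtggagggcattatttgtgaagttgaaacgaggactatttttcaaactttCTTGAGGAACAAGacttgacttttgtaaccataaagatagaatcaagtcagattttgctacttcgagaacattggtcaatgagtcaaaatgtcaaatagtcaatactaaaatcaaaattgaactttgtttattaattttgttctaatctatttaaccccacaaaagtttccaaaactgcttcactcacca

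The motif stood in 5 of the 15 windows of the list and in 0.644% of all windows. Of the genes that held it, NDA1 and AT2G21640 were not called, though NDA1 passed with the replicate block (edgeR adjusted p = 0.00793). CYP81D8 had 62.2, 75.0 and 56.6 CPM in lsd1-1, against 15.9, 28.3 and 17.0 CPM in wild type. Its difference of 1.66 (SE 0.43, edgeR adjusted p = 0.0433) was called in 1 of the 6 runs with a library left out, with adjusted p of 0.0438 to 0.16. With the replicate block the edgeR adjusted p of CYP81D8 was 0.00153.

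A list of chaperones, most of them cytosolic, had the largest median of the lists described here, 2.87, and their levels differed widely between replicates. All 12 members had a positive difference. The test called 6 higher and 0 lower, and 10 higher with the replicate block. HSP101, which dissolves protein aggregates, had 288, 728 and 283 CPM in lsd1-1, against 40.02, 129 and 40.1 CPM in wild type. HSP90.1, the heat-induced Hsp90, had 258, 719.5 and 242 CPM in lsd1-1, against 25.1, 95.2 and 25.5 CPM in wild type. In both groups replicate 2 was the highest library, and its wild-type value lay below every lsd1-1 value. Without lsd1-1 replicate 2 or wild-type replicate 1 the test called 1 member of the list, and without wild-type replicate 3 it called 2. HSP81-2, a constitutive Hsp90 with close paralogs, was the member called in every run (log2 difference 1.47, SE 0.24, edgeR adjusted p = 0.00371). Among heat shock factors 4 of 17 were higher and 1 lower, with 1 higher without lsd1-1 replicate 2 or wild-type replicate 1 or 3 and 2 without lsd1-1 replicate 1. AT-HSFB2B rose by 1.12 (SE 0.21) in every run, and HSFC1 fell by 0.53 (SE 0.11, edgeR adjusted p = 0.00754), a call lost without wild-type replicate 1. ERDJ3A of the endoplasmic reticulum list followed the same pattern of replicates.

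**Figure D3:**
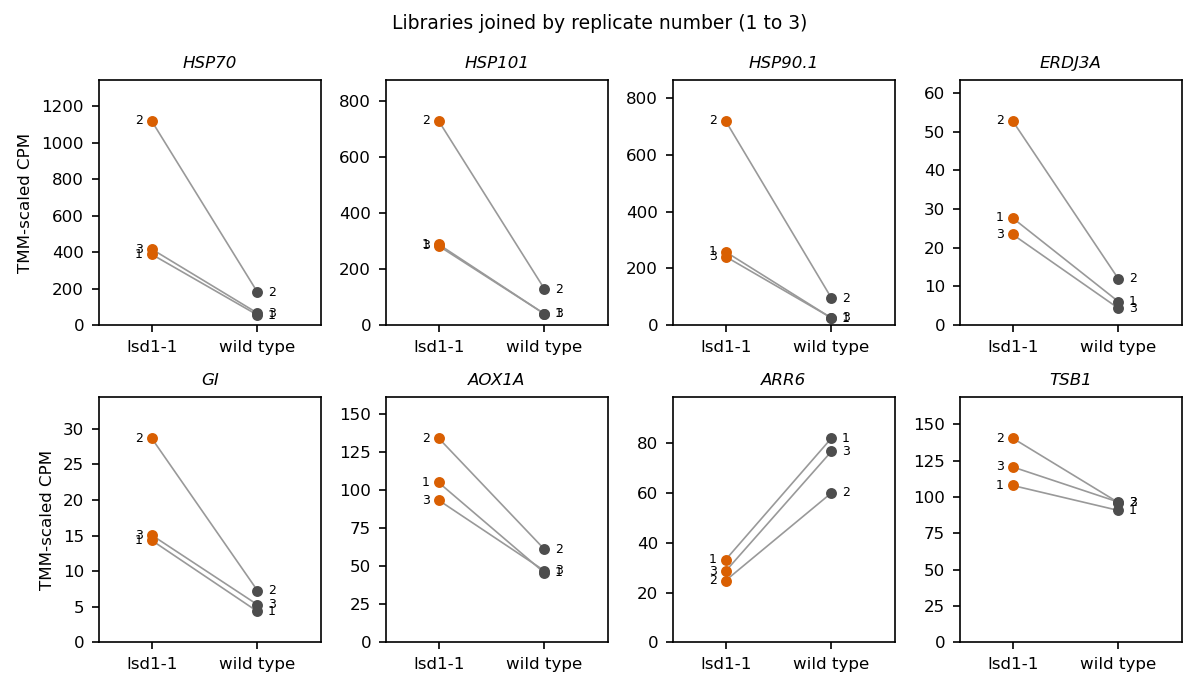
Level of 8 genes in each library, in TMM-scaled CPM from 0, with lsd1-1 on the left and wild type on the right; lines join libraries that share a replicate number. HSP70, HSP101, HSP90.1, ERDJ3A, GI and AOX1A are highest in replicate 2 of both groups, and in every pair the lsd1-1 library lies above its wild-type partner, whereas ARR6 lies below it in every pair.

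Detoxification enzymes and transporters were called higher across several families. Of 44 glutathione S-transferases tested, 14 were higher and 0 lower (median 0.35), with 8 higher without wild-type replicate 1, 9 when replicate 3 of wild type was left out, and 21 with the replicate block. GSTF2, an abundant phi-class enzyme, had 1745, 1665 and 1681 CPM in lsd1-1, against 848, 956 and 712 CPM in wild type (log2 difference 1.02, SE 0.10, edgeR adjusted p = 3.71e-05). GSTF3 is a near-identical copy of it and was called as well (0.80, SE 0.11). GSTU3, a tau-class enzyme, had 25.9, 11.97 and 19.98 CPM in lsd1-1, against 0.386, 0.718 and 0.189 CPM in wild type (5.43, SE 0.62). ABCG40, a plasma membrane transporter known to import abscisic acid, had 134, 87.1 and 129.8 CPM in lsd1-1, against 4.44, 6.19 and 5.76 CPM in wild type. That is a 21.3-fold difference (log2 4.41, SE 0.42, edgeR adjusted p = 0.000225). Of 54 UDP-glycosyltransferases 8 were higher and 4 lower (14 and 7 with the block; 5 higher without lsd1-1 replicate 2 or wild-type replicate 1 or 2, and 1 lower without lsd1-1 replicate 1 or 2 or wild-type replicate 1 or 3, and 2 lower without lsd1-1 replicate 3). UGT76B1, which adds glucose to salicylic acid and to isoleucic acid, rose by 1.76 (SE 0.18), and UGT85A1, which adds glucose to the cytokinin zeatin, rose by 1.82 (SE 0.18). Of 167 cytochromes P450, 21 (12.6%) were higher and 3 (1.8%) lower, against 5.19% and 3.1% of all genes. With the block 9 of them were lower, and without wild-type replicate 1, 12 were higher and 1 lower.

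Genes for calcium entry, calcium pumps and calcium sensors changed, and the members of a family did not all move one way. Of 17 cyclic nucleotide-gated channels, 7 were higher and 1 lower, and 4 were higher without lsd1-1 replicate 1 or wild-type replicate 2. The lower call, CNGC5, was lost without lsd1-1 replicate 2 or 3 or wild-type replicate 1. CNGC10 had 20.0, 18.7 and 19.2 CPM in lsd1-1, against 8.97, 9.96 and 9.64 CPM in wild type (log2 difference 1.02, SE 0.10, edgeR adjusted p = 2.87e-05). The neighbouring genes CNGC3 and CNGC11 rose by 1.27 (SE 0.15) and 1.95 (SE 0.33). DND1, also known as CNGC2, whose mutant has constitutive defence, had 117, 108 and 124 CPM in lsd1-1, against 124, 136 and 127 CPM in wild type, a difference of -0.15 (SE 0.08) that did not pass the test. Of 14 glutamate receptor-like channels 4 were higher, each in every run with a library left out, led by ATGLR1.2 (2.26, SE 0.28). Of 10 calcium ATPases 3 were higher and 1 lower (2 lower with the block or without wild-type replicate 2). The pump AT3G22910 had 18.9, 13.4 and 20.5 CPM in lsd1-1, against 2.51, 1.88 and 2.46 CPM in wild type (2.94, SE 0.23, edgeR adjusted p = 5.76e-06). ACA4, a pump of the small vacuoles, went the other way, with 167, 140.0 and 202 CPM in lsd1-1, against 291, 252 and 358 CPM in wild type (-0.82, SE 0.14, edgeR adjusted p = 0.00364). Of 44 calmodulin-like proteins 10 were higher and 0 lower (1 lower with the block), and 3 to 6 were higher with each of the 6 libraries left out in turn. AT2G41090 had 622, 322 and 545 CPM in lsd1-1, against 249.6, 173 and 192 CPM in wild type (1.28, SE 0.22).

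Receptor kinases of the cell surface were called higher mainly in 3 families. Of 36 cysteine-rich receptor-like kinases tested, 13 were higher and 3 lower (median 0.52), and 6 to 9 were higher with each of the 6 libraries left out in turn, fewest without wild-type replicate 3. Of 11 wall-associated kinases 3 were higher (5 with the block, and 1 lower). WAK1 had 121, 84.4 and 124 CPM in lsd1-1, against 53.0, 32.7 and 51.7 CPM in wild type (log2 difference 1.26, SE 0.19, edgeR adjusted p = 0.00202). Of 35 lectin receptor kinases 6 were higher and 0 lower (2 lower with the block, and 1 higher without wild-type replicate 1 and 3 without wild-type replicate 3). Of 39 receptor-like proteins 5 were higher and 2 lower, with 2 higher without lsd1-1 replicate 1 or 3 or wild-type replicate 1 or 2, and 3 without wild-type replicate 3. The 2 lower calls came to 1 with any of the lsd1-1 libraries left out and 0 without wild-type replicate 1. Among 111 intracellular immune receptors of the NLR type 8 (7.21%) were higher and 2 (1.8%) lower, against 5.19% and 3.1% of all genes. With the block 5 were lower, as were 5.84% of all genes. Their higher count was 3 without wild-type replicate 1, 5 without lsd1-1 replicate 1 or 3 and 4 without wild-type replicate 3. Their lower count was 0 without lsd1-1 replicate 2 and 1 without lsd1-1 replicate 1 or 3 or wild-type replicate 1. RBOHD, the oxidase that makes apoplastic superoxide in immune signalling, had 82.2, 98.5 and 88.9 CPM in lsd1-1, against 55.2, 57.3 and 62.4 CPM in wild type (0.63, SE 0.09, edgeR adjusted p = 0.000866).

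Many of the cysteine-rich kinases that rose lie side by side. On chromosome 4, 8 consecutive tested genes between 12125664 and 12156881 (TAIR10.1) were called higher, the longest such run in the genome. It takes in CRK7, CRK8, the kinase-related gene EP1 and CRK10 to CRK14, a set found by its calls and therefore named after its values were seen. The differences ran from 0.58 (CRK10, SE 0.10) to 2.80 (CRK13, SE 0.34). CRK13 had 5.81, 3.80 and 5.62 CPM in lsd1-1, against 0.771, 0.359 and 1.04 CPM in wild type. CRK14, at the right end, was called narrowly (edgeR adjusted p = 0.0498). On the left, CRK5 was called and CRK6 was not (0.0873), and on the right CRK15 and CRK16 were not called. EMB1290 and CRK18, next in order, had differences of -0.05 (SE 0.15) and -0.06 (SE 0.24). Paralogs in such a cluster share sequence, so reads may have been split between them.

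**Figure D4:**
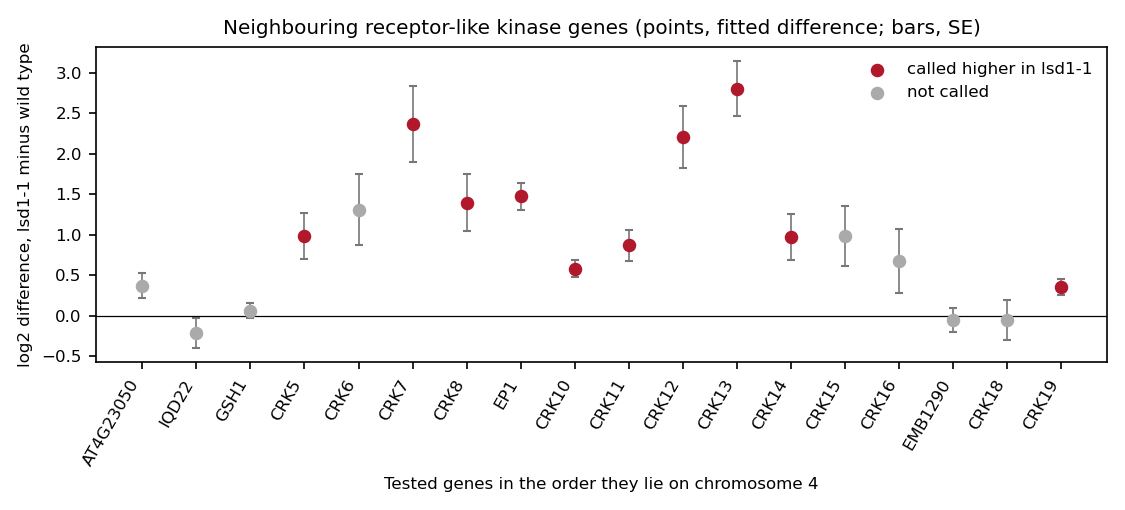
Fitted log2 difference, lsd1-1 minus wild type, with its SE, for 18 consecutive tested genes on chromosome 4 in the order they lie there. Red points were called higher and grey points were not called; the run from CRK7 to CRK14 is unbroken, with its highest value at CRK13 (2.80).

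Both promoters and inhibitors of cell death were among the genes that rose. Of 19 tested, 6 were higher and 0 lower (median 0.28). BAP2 and BAP1, inhibitors of cell death that bind copine proteins, and the copine BON3 were all higher. BAP2 had 20.0, 6.87 and 14.2 CPM in lsd1-1, against 0.0964, 0.179 and 0 CPM in wild type, with 439 counts in all against 3 (145-fold, 95% counting interval 49.4-fold to 707-fold). BAP1 had 16.9, 9.65 and 9.45 CPM in lsd1-1, against 2.89, 3.41 and 2.27 CPM in wild type (log2 difference 2.06, SE 0.32). The metacaspase MC8, a protease linked to death under oxidative stress, had 17.7, 10.02 and 14.0 CPM in lsd1-1, against 3.76, 3.95 and 3.402 CPM in wild type (1.90, SE 0.25, edgeR adjusted p = 0.000417).

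Response regulators of cytokinin signalling fell. Those of type A are induced within minutes by this hormone, which promotes division and leaf growth, and they feed back to dampen its signal. Of 14 genes tested in the cytokinin list, 7 were lower and 0 higher (median -0.49), and 5 of the 7 were lower in every run with a library left out. All 7 were type-A regulators, and 9 of this type were tested. ARR7 had 64.4, 43.7 and 52.0 CPM in lsd1-1, against 171, 116 and 134 CPM in wild type, so that its highest mutant value lay below its lowest wild-type value. Its log2 difference was -1.40 (SE 0.15, edgeR adjusted p = 0.000105), a ratio of 0.38. ARR6 had 33.2, 24.9 and 28.6 CPM in lsd1-1, against 82.2, 60.1 and 76.8 CPM in wild type (-1.34, SE 0.16, edgeR adjusted p = 0.000248). ARR5 (-1.33, SE 0.26), ARR8 (-0.90, SE 0.11) and ARR9 (-0.79, SE 0.11) were lower in every run, whereas ARR15 (-1.35, SE 0.28) lost its call without lsd1-1 replicate 2 or wild-type replicate 1 or 3 (highest adjusted p = 0.0559). The call of ARR4 (-0.52, SE 0.15, edgeR adjusted p = 0.0489) held in 1 of the 6 runs. With the replicate block all 7 were lower. There the edgeR adjusted p was 0.000266 for ARR4, 3.16e-07 for ARR15 and 0.00511 for ARR5. The receptors did not pass the test: AHK2 differed by -0.22 (SE 0.09), AHK3 by 0.04 (SE 0.07) and AHK4 by -0.20 (SE 0.13). CRF5, a cytokinin response factor of the AP2/ERF family, had 18.6, 11.97 and 18.6 CPM in lsd1-1, against 38.2, 27.6 and 34.7 CPM in wild type (-1.03, SE 0.16, edgeR adjusted p = 0.00106).

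**Figure D5:**
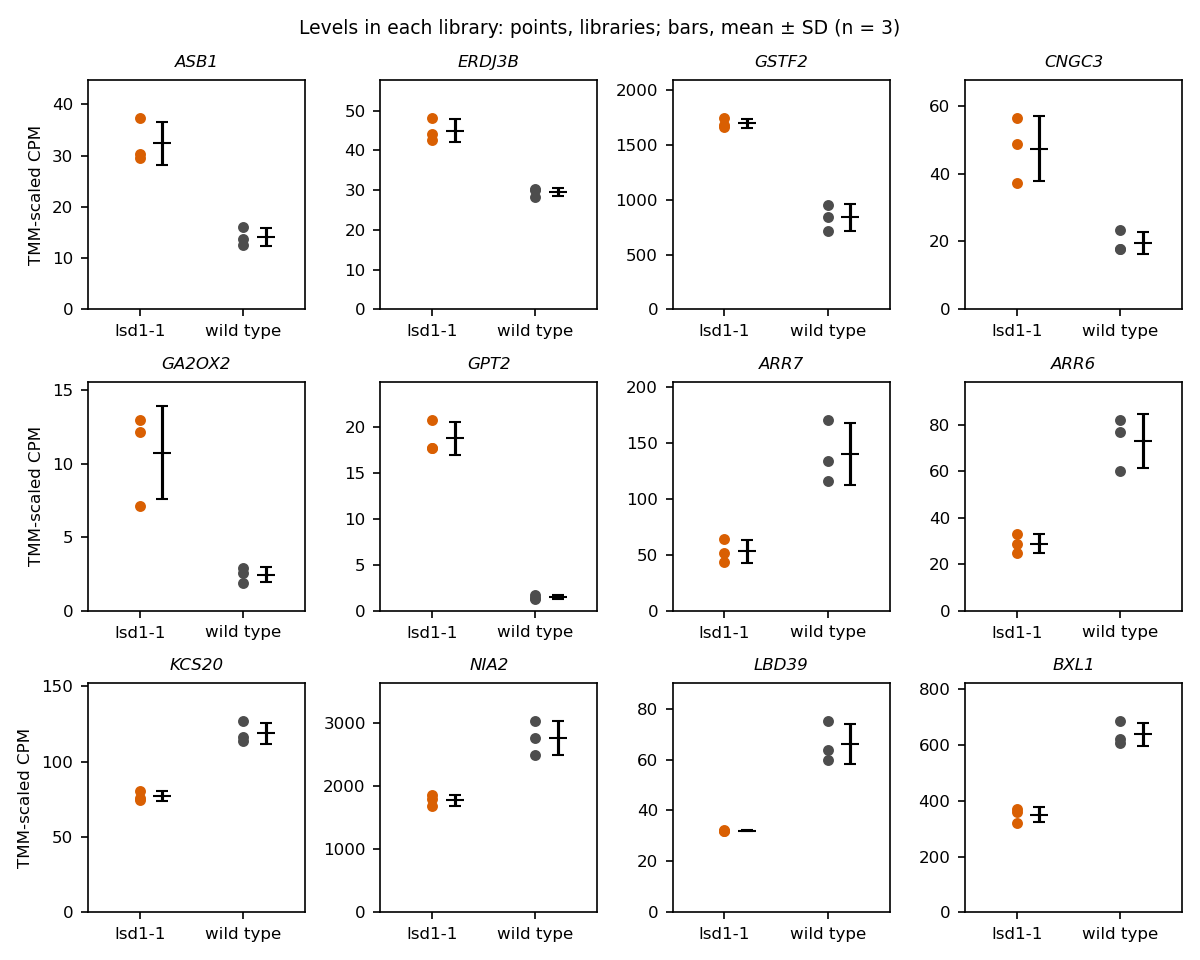
Level of 12 genes in each library (points) with mean and SD (bars, n = 3), in TMM-scaled CPM on axes from 0; lsd1-1 is on the left of each panel and wild type on the right. The first 6 genes, from ASB1 to GPT2, lie higher in all 3 lsd1-1 libraries, and the last 6, from ARR7 to BXL1, lie lower in all 3.

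Fatty acid elongases of the leaf surface fell, most of them by small amounts. The list of 3-ketoacyl-CoA synthases, which lengthen the fatty acids of wax and cuticle, and of lipid transfer proteins had 9 of 23 tested members lower and 0 higher (median -0.35). With the block 13 were lower, and 5 were lower without lsd1-1 replicate 1 or wild-type replicate 1. KCS20 had 74.6, 80.6 and 75.8 CPM in lsd1-1, against 127, 114 and 116 CPM in wild type (log2 difference -0.62, SE 0.10, edgeR adjusted p = 0.00144). KCS12 had 24.3, 24.2 and 21.9 CPM in lsd1-1, against 46.9, 44.9 and 35.4 CPM in wild type (-0.85, SE 0.12), and KCS5 differed by -0.65 (SE 0.09). All 3 were lower in every run. Of the lipid transfer protein genes LTP2, LTP3, LTP4, LTP5, LTP6, LP1 and LTP, LTP4 was the only one called (-2.30, SE 0.53), and the call was lost in 3 of the 6 runs. KCS10, which is also the epidermis marker FDH, was the only called member of that marker list (-0.35, SE 0.09), and the call was lost in 5 of the 6 runs. The epidermis markers summed to 929.8 to 1157 CPM in lsd1-1 and 1107 to 1405 CPM in wild type, and their part in the lower synthase levels was not tested. With the block or without wild-type replicate 3, 2 epidermis markers were lower. MYB16, a regulator of cuticle formation, had 48.0, 34.2 and 35.6 CPM in lsd1-1, against 79.6, 71.0 and 52.4 CPM in wild type (-0.79, SE 0.17, edgeR adjusted p = 0.0126). The call was lost without lsd1-1 replicate 2 or 3 or wild-type replicate 1 (highest adjusted p = 0.0608).

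Genes of growth hormones other than cytokinin were called in both directions. GA2OX2, which inactivates gibberellin, had 13.0, 7.14 and 12.1 CPM in lsd1-1, against 2.89, 1.88 and 2.55 CPM in wild type, a 4.40-fold difference (log2 2.14, SE 0.29, edgeR adjusted p = 0.000452). The related GA2OX6 rose by 1.14 (SE 0.29), a call lost in 4 of the 6 runs (highest adjusted p = 0.112), and 2 of 11 genes in the gibberellin list (18.2%, against 5.19% of all genes) were higher and 0 lower. In the brassinosteroid list 2 of 11 (18.2%, against 3.1% of all genes) were lower and 0 higher (4 lower with the block, 3 without lsd1-1 replicate 2 and 1 without wild-type replicate 1), and 10 of the 11 had a negative difference. CPD, an early enzyme of brassinosteroid synthesis, had 167, 167 and 179 CPM in lsd1-1, against 234, 227 and 237 CPM in wild type (-0.44, SE 0.08, edgeR adjusted p = 0.00495). BR6OX2, which acts late in the pathway, differed by -0.47 (SE 0.10), with its call lost without wild-type replicate 1 (0.055). Of 56 small auxin-up RNA genes 6 (10.7%) were lower and 1 higher, with 2 lower without lsd1-1 replicate 2 or wild-type replicate 1. The higher call was lost without lsd1-1 replicate 1 or 2 or wild-type replicate 2 or 3. Of 32 Aux/IAA, ARF and GH3 genes 2 (6.25%) were higher and 1 (3.13%) lower, near the shares of all genes (3 lower with the block). In that list 1 was higher without lsd1-1 replicate 2 or wild-type replicate 1 or 3, and the lower count was 0 without lsd1-1 replicate 2 or wild-type replicate 1 and 2 without wild-type replicate 3. RCAR3, an abscisic acid receptor, had 96.3, 79.4 and 87.8 CPM in lsd1-1, against 153, 140.0 and 132 CPM in wild type (-0.69, SE 0.10, edgeR adjusted p = 0.000713).

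Several cell wall genes were lower. BXL1, a beta-xylosidase that trims wall polysaccharides, had 319, 368 and 360.1 CPM in lsd1-1, against 605, 684 and 621 CPM in wild type (log2 difference -0.87, SE 0.10, edgeR adjusted p = 0.000149). The groups did not overlap. XTH6, a xyloglucan endotransglucosylase, had 160.1, 159 and 137 CPM in lsd1-1, against 266, 265 and 227 CPM in wild type (-0.73, SE 0.11). In that family 4 of 30 were lower and 1 higher (2 higher with the block; 2 lower without lsd1-1 replicate 2 or 3 or wild-type replicate 1; 0 higher without lsd1-1 replicate 1 or wild-type replicate 1 or 3, and 2 higher without wild-type replicate 2). Of 40 arabinogalactan proteins 5 were lower and 2 higher (8 and 5 with the block; 2 lower without wild-type replicate 1, and 3 without lsd1-1 replicate 3 or wild-type replicate 3), with AGP17 at -0.93 (SE 0.15). Neither higher call held in all 6 runs: the count was 0 without lsd1-1 replicate 2 or 3 or wild-type replicate 1 or 2, and 1 without the others. Among 24 expansins 1 was lower and 1 higher (4.17% each, near the 3.1% and 5.19% of all genes). The lower count was 0 without lsd1-1 replicate 1 or wild-type replicate 1 or 3 and 2 without lsd1-1 replicate 3, and the higher count was 2 without wild-type replicate 2. PATL1, which acts in cell plate formation, had 217, 238 and 211 CPM in lsd1-1, against 375, 357 and 338 CPM in wild type (-0.68, SE 0.09). Of 26 aquaporins 5 were lower and 0 higher (2 higher with the block), with log2 differences from -0.39 to -0.29. None of the 5 was called in all 6 runs. Without lsd1-1 replicate 1, 3 aquaporins were higher and 0 lower. Without wild-type replicate 1 or 2, 0 were lower, and without lsd1-1 replicate 2, lsd1-1 replicate 3 or wild-type replicate 3 the counts were 1, 2 and 2. Several aquaporins are near-identical copies. Cyclins and their kinases (39 tested) and tubulins (15 tested) had 0 genes called in either direction with edgeR, and 1 and 3 of them were lower with the block. Of the cyclins and kinases 3 had an unadjusted p below 0.05 and 0 were called by DESeq2, and of the tubulins 4 and 1.

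Nitrate assimilation fell at its first enzyme. NIA2, the main nitrate reductase of leaves, had 1686, 1858 and 1794 CPM in lsd1-1, against 2758, 2497 and 3031 CPM in wild type (log2 difference -0.63, SE 0.09, edgeR adjusted p = 0.000678). NIA1, its partner, had 271, 357 and 325 CPM in lsd1-1, against 553, 414 and 689 CPM in wild type (-0.80, SE 0.18, edgeR adjusted p = 0.0166). The NIA1 call was lost without lsd1-1 replicate 1 or wild-type replicate 1 or 3 (highest adjusted p = 0.079). Nitrite reductase NIR1 had 276, 378 and 303 CPM in lsd1-1, against 368, 321 and 392 CPM in wild type, with overlapping groups. The asparagine synthetases moved apart, ASN2 by -0.57 (SE 0.09) and ASN1 by 0.49 (SE 0.11), the call of ASN1 being lost without lsd1-1 replicate 3 or wild-type replicate 1. In all, 3 of 11 genes of the list were lower and 1 higher (2 higher with the block). LBD39, a repressor of nitrate-responsive genes that is itself induced by nitrate, had 32.2, 31.8 and 32.1 CPM in lsd1-1, against 75.0, 59.9 and 63.6 CPM in wild type (-1.05, SE 0.11, edgeR adjusted p = 4.64e-05). Its 3 mutant values were nearly equal and all lay below the lowest wild-type value (ratio 0.484). Of 8 phosphate starvation genes, IPS1, a non-coding RNA, and AT5G03545 were lower (-1.45, SE 0.29, and -0.72, SE 0.15), and 0 were higher. The call of AT5G03545 was lost without wild-type replicate 1 (0.0564). Sulfate assimilation and glutathione synthesis (11 tested) had 0 called by edgeR or DESeq2, 1 at an unadjusted p below 0.05, and 1 higher with the block.

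Light and clock regulators showed opposite calls among close relatives. Of 27 B-box factors 6 were lower and 1 higher (4 higher with the block, median -0.22). The higher call was lost without lsd1-1 replicate 1 or 3 or wild-type replicate 1, and 3 were higher without wild-type replicate 2. BBX14 had 27.1, 33.1 and 28.5 CPM in lsd1-1, against 62.2, 46.8 and 59.9 CPM in wild type (log2 difference -0.93, SE 0.15, edgeR adjusted p = 0.00188). STH, another member, had 183, 171 and 191 CPM in lsd1-1, against 267, 243 and 267 CPM in wild type (-0.51, SE 0.07). PHYB, the red light receptor of grown leaves, rose by 0.36 (SE 0.08), while the far-red receptor PHYA (-0.38, SE 0.08) and the blue light receptor CRY1 (-0.31, SE 0.07) fell. Each of those 3 calls was lost in at least 1 run with a library left out. PHYB reached 0.0787 without wild-type replicate 1, and PHYA 0.0501 and CRY1 0.0753 without lsd1-1 replicate 1. Of 11 genes in the shade and light list 1 was higher and 2 lower (2 higher with the block). The higher count was 0 without lsd1-1 replicate 2 or wild-type replicate 1 or 3. The lower count was 0 without lsd1-1 replicate 1 and 1 without lsd1-1 replicate 3 or wild-type replicate 1 or 3. In the clock list of 12, GI was higher and RVE4 and ELF3 were lower, and 3 were higher with the block or without wild-type replicate 2. The call of ELF3 was lost without lsd1-1 replicate 3 or wild-type replicate 1 (highest adjusted p = 0.0921). RVE4, which is listed as LCL1 in the reference, had 173, 169 and 182 CPM in lsd1-1, against 283, 229 and 285 CPM in wild type (-0.61, SE 0.09, edgeR adjusted p = 0.000887). The morning genes CCA1 (0.00, SE 0.10) and LHY (-0.15, SE 0.09) did not pass the test.

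Single genes with firm calls lay both inside and outside the lists. GPT2, which imports glucose 6-phosphate into plastids, had 17.7, 20.8 and 17.7 CPM in lsd1-1, against 1.74, 1.44 and 1.32 CPM in wild type. That is a 12.4-fold difference (log2 3.64, SE 0.29, edgeR adjusted p = 9.55e-06). The hexose carrier STP13, listed as MSS1, had 27.8, 38.8 and 29.3 CPM in lsd1-1, against 9.06, 13.1 and 9.35 CPM in wild type (1.601, SE 0.20), while STP1 fell by 0.43 (SE 0.09), a call lost without lsd1-1 replicate 1. Of 16 SWEET and STP transporters 1 (6.25%) was higher and 2 (12.5%) lower, against 5.19% and 3.1% of all genes. The lower count was 0 without lsd1-1 replicate 1, and 1 without lsd1-1 replicate 3 or wild-type replicate 1 or 2. BZO2H3, a bZIP factor of energy signalling also known as bZIP63, had 38.8, 37.9 and 33.4 CPM in lsd1-1, against 70.8, 60.2 and 53.6 CPM in wild type (-0.74, SE 0.10). RSH2, which makes the plastid alarmone ppGpp, had 87.3, 78.0 and 87.6 CPM in lsd1-1, against 38.2, 39.4 and 33.1 CPM in wild type (1.19, SE 0.10, edgeR adjusted p = 1.15e-05). TAT3, a tyrosine aminotransferase induced by jasmonate, had 29.5, 23.47 and 27.7 CPM in lsd1-1, against 2.31, 1.08 and 1.98 CPM in wild type, a 15.03-fold difference (3.91, SE 0.22, edgeR adjusted p = 5.19e-07). JAZ1, a repressor of jasmonate signalling, rose by 1.48 (SE 0.19), and 2 of 12 repressors of this family were higher and 1 lower (2 lower with the block). Without lsd1-1 replicate 1 or 2 or wild-type replicate 2 or 3, 1 was higher, and without lsd1-1 replicate 1 or 2 or wild-type replicate 1 or 3, 0 were lower. Other firm rises were NUDT6, a nudix hydrolase (2.86, SE 0.20), the amino acid transporter LHT7 (2.92, SE 0.25) and SBT3.3, a subtilase of immune priming (1.74, SE 0.14). Among firm falls was CIPK3, a kinase regulated by calcium sensors, with 107, 83.6 and 83.3 CPM in lsd1-1, against 229, 159 and 196 CPM in wild type (-1.09, SE 0.13).

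Several of the largest rises were of genes at or near 0 counts in wild type. AT5G63225 had 329 counts in lsd1-1 and 0 in wild type, at least 109-fold higher, taking 3 counts summed over its 3 libraries as the floor. AT5G46960, annotated as an invertase or pectin methylesterase inhibitor, had 199 counts in lsd1-1 and 0 in wild type, at least 65.9-fold higher. BGLU27, a beta-glucosidase, had 188 counts in lsd1-1 and 2 in wild type (93.4-fold, 95% counting interval 25.5-fold to 777-fold). PUB54, a U-box protein, had 15.7, 10.3 and 12.6 CPM in lsd1-1, against 0.579, 0.179 and 0.283 CPM in wild type (36.2-fold). The largest falls included that of AT1G27990, a gene of unknown function, with 0, 0.928 and 0 CPM in lsd1-1, against 8.58, 3.95 and 5.58 CPM in wild type (log2 difference -4.23, SE 0.84, edgeR adjusted p = 0.0103). Firm falls of more abundant genes included BZIP61 (-1.37, SE 0.17), the RING protein AT1G49200 (-1.38, SE 0.14) and the DNA glycosylase AT5G44680 (-1.30, SE 0.14).

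Among transcription factors the WRKY family had the most calls. Of 56 tested, 13 were higher and 2 lower, and 10 and 0 held with every library left out. The lower count was 1 without wild-type replicate 2 and 0 in the other 5 runs. They were led by WRKY59 (log2 difference 5.35, SE 0.44), WRKY51 (3.23, SE 0.32) and WRKY75 (2.28, SE 0.24), and WRKY70, a node between salicylic acid and jasmonate signalling, rose by 2.17 (SE 0.17). Of 68 NAC factors 8 were higher and 1 lower (17 and 2 with the block; 3 higher without wild-type replicate 3 and 5 or fewer without lsd1-1 replicate 1 or 2 or wild-type replicate 1; 2 lower without wild-type replicate 3). Of 46 ERF and DREB factors 5 were higher and 1 lower (10 and 2 with the block; 2 higher without wild-type replicate 1 or 3 and 3 without lsd1-1 replicate 1; 2 lower without wild-type replicate 2). Of 83 MYB factors 4 (4.82%) were higher and 2 (2.41%) lower, near the 5.19% and 3.1% of all genes. Their lower count was 0 without lsd1-1 replicate 2 or wild-type replicate 1, and 1 without lsd1-1 replicate 1 or 3. Of 31 bZIP factors 3 (9.68%) were higher and 3 (9.68%) lower. Their higher count was 0 without lsd1-1 replicate 2 or wild-type replicate 1, and 1 without lsd1-1 replicate 3 or wild-type replicate 3. Of 4 ZAT zinc fingers 3 were higher and 2 with the block, in which STZ (1.59, SE 0.42, edgeR adjusted p = 0.0431) reached 0.076; 1 was higher when any library but wild-type replicate 2 was left out.

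Other families of defence and signalling had mixed counts. The shares over all genes were 5.19% higher and 3.1% lower, and 8.98% and 5.84% with the block. Class III peroxidases, which act on the cell wall and on hydrogen peroxide, had 10 of 57 higher and 1 lower (3 lower with the block; 5 higher without wild-type replicate 1 and 6 without lsd1-1 replicate 3). The lower call, AT3G28200, was lost in all 6 runs. Beta-glucosidases had 7 of 36 higher (11 higher and 1 lower with the block; 3 higher without lsd1-1 replicate 1 or wild-type replicate 1 or 3). Of 35 ABCG transporters 4 (11.4%) were higher and 3 (8.57%) lower. Their higher count was 2 without wild-type replicate 1, and their lower count was 0 without lsd1-1 replicate 1 or 3 or wild-type replicate 1 or 2. Of 44 DTX transporters 5 were higher and 1 lower (2 lower with the block; 3 higher without lsd1-1 replicate 1 or wild-type replicate 1). Of 22 plant U-box ligases 4 were higher, in every run: PUB54, PUB23, PUB24 and PUB29. Calcium-dependent protein kinases had 3 of 26 higher (1 lower with the block; 1 higher without lsd1-1 replicate 1 or wild-type replicate 1). The MAP kinase cascade had 5 of 44 higher and 1 lower (2 lower with the block; 3 higher and 0 lower without wild-type replicate 1, 3 higher without wild-type replicate 3, and 0 lower without lsd1-1 replicate 3 or wild-type replicate 2). Syntaxins with EXO70 subunits, the fusion machinery of secretion, had 5 of 40 higher and 2 lower. The lower count was 1 without lsd1-1 replicate 3 or wild-type replicate 3 and 0 in the other 4 runs. CC-type glutaredoxins had 1 of 6 higher, and respiratory burst oxidases 1 of 5 (2 with the block or without lsd1-1 replicate 1 or wild-type replicate 2).

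Ribosomal and pentatricopeptide repeat proteins had few calls, and the remaining lists are given after them. The share of tested members called higher was 0.81% for ribosomal, 0.429% for pentatricopeptide repeat and 2.63% for proteasome proteins, against 5.19% of all genes. It was 8% for autophagy and 9.09% for starch genes. The share called lower was 1.72% for pentatricopeptide repeat proteins, 4.76% for histones and 25% for flower markers, against 3.1% of all genes. Of 247 ribosomal proteins 2 were higher and 0 lower (2 lower with the block), with log2 differences of 0.29 and 0.38. The higher count was 0 without lsd1-1 replicate 3, 2 without lsd1-1 replicate 2 and 1 in the other 4 runs. Of 233 pentatricopeptide repeat proteins, which process organelle transcripts, 1 was higher and 4 lower (3 and 9 with the block; 1 lower without lsd1-1 replicate 2 or 3 or wild-type replicate 1, and 2 without wild-type replicate 2). Its higher call was lost without lsd1-1 replicate 1 or 2 or wild-type replicate 1 or 3. Proteasome subunits had 1 of 38 higher, with 2 higher without wild-type replicate 3 and 0 without lsd1-1 replicate 2 or 3 or wild-type replicate 1 or 2. Autophagy proteins had 2 of 25 higher (4 higher and 1 lower with the block), with 0 higher without lsd1-1 replicate 1 or wild-type replicate 3 and 1 in the other 4 runs. Histones had 1 of 21 lower (1 higher as well with the block), a call lost without lsd1-1 replicate 3 or wild-type replicate 1 or 2. Chlorophyll synthesis (12 tested) had 0 called in either edgeR fit or by DESeq2, and 1 at an unadjusted p below 0.05. Starch metabolism had 1 of 11 higher (2 with the block, and 0 without lsd1-1 replicate 2 or 3 or wild-type replicate 1 or 2), class II trehalose phosphate synthases 0 of 7 (1 in each direction with the block) and the low oxygen list 0 of 15 (4 higher with the block). In both of the last lists DESeq2 called 1, and 2 and 3 had an unadjusted p below 0.05. Flower markers, 4 of 7 tested, had SEP3 lower at an edgeR adjusted p = 0.0491, a call lost in every run with a library left out. Their sum was 16.2 to 17.44 CPM in lsd1-1 and 19.5 to 21.2 CPM in wild type.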

How the data were processed

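RNA from whole rosettes was sequenced with a stranded mRNA kit, per the labels' protocols. Per the submitters' processing notes, Trimmomatic 0.30, GSNAP and HTSeq 0.6.1 were used with TAIR10, and the authors deposited raw counts per gene model (27416 models). The strand setting of HTSeq is not given in the sources used here, so reads of overlapping or antisense genes cannot be told apart, and near-identical copies may share or lose reads. Low-count genes were removed with filterByExpr, which left 19487. Depth was 9781360 to 10934277 counts in the 6 libraries compared, and intervals cover counting error only.

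Differences (lsd1-1 over wild type, log2) come from edgeR 4.0.16 (R 4.3.3, limma 3.58.1): quasi-likelihood F-tests on TMM-scaled counts, with 4 group means over 12 libraries, and Benjamini-Hochberg adjustment over the 19487 genes. Calls require an adjusted p under 0.05. Levels are TMM-scaled CPM, comparable between libraries but not between genes, since gene length is not divided out. Errors are standard errors of the log2 difference unless named SD. The fit was tested on simulated data with 200 changed genes. Those data had the same spread beyond counting error for every gene and no replicate pairs, so that test does not cover either feature. Same-numbered libraries of both genotypes deviated together from their group means (r of 0.253, 0.168 and 0.388), which is the source of the pairing. The p-values rest on the spread between libraries of the same group, estimated over all 4 groups and with information shared across genes. The main fit does not use the pairing by replicate number.

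Alternatives were RLE size factors, DESeq2 1.42.0, other filters, the 2 groups alone, the replicate block, a test against a 1.5-fold change, and leaving out each library. The gene lists (71) and the list of genes named were chosen with earlier results of these data known. Of 286 list entries written by locus, 4 were dropped because the reference gives another symbol. Among them were NAC013 of the mitochondrial list and CRT2 of the endoplasmic reticulum list. Named genes were, per list, up to 4 higher and 3 lower with the lowest adjusted p; outside the lists, the 15 firmest and the 12 largest changes each way among genes of at least 5 CPM whose groups did not overlap; and the 10 loci on either side of LSD1. Other members of the lists named here, in text or figures, were chosen after their values were seen. Sequence windows and motif positions were read from the RefSeq TAIR10.1 genome and annotation, in which 26719 of the loci were found. Motifs were searched on both strands in 19421 windows. The heat shock element stood in 2 of 12 windows of the list of mostly cytosolic chaperones and 0.546% of all windows. Its holders were HSP70, called higher, and HSP17.4, called higher only with the replicate block (edgeR adjusted p = 0.00314). The cytokinin core stood in 1 of 14 windows of the cytokinin list and 3.49% of all windows.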

Additional observations from a re-analysis of the deposited data

How the results depend on the processing

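Counts of genes called higher and lower were 1012 and 605. They were 1750 and 1139 with the replicate block, 2027 and 1302 with the replicate block in the 2 groups alone, and 239 and 12 when tested against a 1.5-fold change. Leaving out each library in turn gave 540 to 904 genes higher and 224 to 471 lower; these runs have fewer samples, and otherwise the cause was not tested. RLE size factors (1000 and 617), DESeq2 (1147 and 646), no low-count filter (965 and 511), a filter of 5 CPM (924 and 602) and the 2 groups alone (1074 and 522) stayed within 1.5 times. No named gene that was called in the main fit or in the setting compared changed sign there. Sign changes of genes called in neither were not counted. The replicate block ended the call of STZ. Among genes described as not called, TSB2, NDA1, CRT1 and HSP17.4 passed with it (edgeR adjusted p = 0.0339, 0.00793, 0.0204 and 0.00314). Without wild-type replicate 1, 87 calls of named results were lost. Motif shares and sums of marker levels were not recomputed under these alternatives. With 3 libraries a group at this depth, genes with a few counts give wide intervals.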

Other observations

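Genes called higher in lsd1-1 lay beside each other on the chromosomes more often than the genes not called. Of the 1012 genes called higher, 193 (19.1%) had a tested neighbour that was also called higher, against 1691 (9.5%) of 17805 genes not called. Of the 605 genes called lower, 68 (11.2%) had a neighbour called lower, against 1062 (5.96%) of the genes not called. Such neighbours can be tandem copies, which can share reads. Tandem copies were not counted, and their part in these shares was not tested.

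Beside the kinase cluster on chromosome 4, the longest run of neighbours called higher was one of 6 genes of TIR-domain proteins on chromosome 1, from AT1G72890 to AT1G72940 (27429916 to 27443859, TAIR10.1), with log2 differences of 1.101 to 2.602. AT1G72890 had 21.8, 13.1 and 18.0 CPM in lsd1-1, against 2.89, 3.59 and 2.17 CPM in wild type. Runs of 3 held the methionine sulfoxide reductases MSRB7, MSRB8 and MSRB9, which repair oxidised proteins (0.79 to 2.17), and HR2, HR3 and HR4, homologs of the RPW8 mildew resistance genes (1.92 to 2.37). They also held 3 MATE transporters from DTX1 to AT2G04070 (1.55 to 3.13) and the berberine bridge enzyme genes AT1G26380, AT1G26390 and AT1G26400 (2.80 to 6.13). On chromosome 5, MAKR6 and its neighbours AT5G52882 and AT5G52890 were lower (-0.69 to -0.63). These genes were picked after their calls were seen.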
